A study of Mus musculus with 2 samples.

Results

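Cathepsins are the main proteases of the lysosome, and the 10 genes described here are 9 of them (Ctsa, Ctsb, Ctsc, Ctsd, Ctsh, Ctsk, Ctsl, Ctss and Ctsz) with Cstb, which encodes cystatin B, a cytosolic inhibitor of the cysteine cathepsins. They were taken by symbol from the 34097 genes listed in the count matrices, in each of which a member's symbol stood on 1 line. The study profiled single cells of tumours grown from LLC (Lewis lung carcinoma, a mouse lung cancer line; the submitters call the tissue a lung cancer xenograft) by droplet RNA sequencing on the 10x Genomics platform. There were 2 libraries, 1 a group. One came from a control tumour and the other from a tumour treated with a short hairpin RNA against GFPT2, a gene that encodes an isoform of the rate-limiting enzyme of the hexosamine pathway. The labels name no mouse strain, age, hairpin sequence, time or number of animals, and do not say what the control received. With 1 library a group no test between the groups is possible, and every interval below covers counting error only.

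Most cathepsins are made as inactive precursors, sorted to lysosomes by mannose 6-phosphate receptors, and activated by cleavage at acid pH. Ctsb, Ctsc, Ctsh, Ctsk, Ctsl, Ctss and Ctsz are cysteine proteases, Ctsd is an aspartic protease, and Ctsa is a serine carboxypeptidase. In tumours, macrophages are a known source of several of them, where they degrade engulfed protein and, for Ctss, trim the invariant chain of MHC class II.

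Cells were placed in 4 classes by thresholds on other genes, so that the classes are ranges of expression and not cell types defined by an atlas. Macrophages had at least 10 UMIs (unique molecular identifiers, each standing for 1 captured transcript) of C1qa, C1qb and C1qc together per 10000 UMIs, which gave 3857 control and 4392 knockdown cells. Monocytes had at least 20 UMIs of Lyz2 and fewer than 5 of the C1q genes per 10000, which gave 144 and 39 cells. T cells had at least 2 UMIs of Cd3d, Cd3e and Cd3g together, which gave 650 and 531 cells. Tumour-like cells had no Ptprc UMI, fewer than 5 Lyz2 UMIs per 10000 and at least 5000 UMIs in all, which gave 4959 and 5164 cells. A further 148 and 179 cells met several of these rules and were left out of all classes, as were 904 and 1145 that met none. Levels are CPM, the UMIs of a gene summed over the cells of a class per 1000000 UMIs of that class, with an exact 95% Poisson interval in parentheses where a range follows a level. Pairs of values are in the order control and knockdown.

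The libraries held 11977 control and 12853 knockdown barcodes with 165824226 and 138402860 UMIs, and 37 barcode sequences occurred in both. Over all retained cells Gfpt2 was at 1.76 CPM (1.54 to 1.99) without the hairpin and at 0.573 CPM (0.445 to 0.727) with it, in the direction of the label. Macrophages carried their markers (8 genes summed to 58715 control and 48772 knockdown CPM), and T cells carried Trac at 393 and 473 CPM. The control monocytes, in contrast, held a neutrophil signal: S100a8, S100a9, Csf3r, Cxcr2 and Retnlg summed to 1236 CPM there and to 48.7 CPM in the knockdown monocytes. Tumour-like cells expressed Hmga2 at 220 and 218 CPM, but the epithelial genes were near 0 (Krt8 at 0.087 and 0.092 CPM, Krt18 at 1 and 0 UMIs), and the fibroblast genes Dcn and Col3a1 reached 1027 and 1411 CPM in the control cells. That rule does not separate stromal cells of the mouse from tumour cells.

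Across the classes, 7 of the 10 members (Ctsa, Ctsb, Ctsc, Ctsd, Ctsh, Ctss and Ctsz) had their highest level in macrophages in both libraries. Ctsl was highest in tumour-like cells in both libraries. Cstb was highest in control monocytes and, in the other library, in tumour-like cells, and Ctsk was almost absent. Of the 9 members with at least 100 UMIs in 1 of the classes compared (not Ctsk), 6 were at least 4-fold higher in macrophages than in tumour-like cells in the control library, where 11% of 12955 genes passed the same bound, and 5 in the knockdown library (9.95% of 12774 genes). Against T cells 7 members passed 4-fold in the control library (7.92% of 10285 genes) and 6 in the knockdown library (7.13% of 10494 genes). By the ratio of macrophages to tumour-like cells, the macrophage-led members fell into a pair with more than 100-fold (Ctss and Ctsc), an intermediate gene (Ctsh), and 4 with lower ratios (Ctsb, Ctsd, Ctsa and Ctsz). The order against T cells was another, since Ctsh (32.4-fold and 32.6-fold) stood with Ctss (32.0-fold and 26.6-fold), and Ctsc (12.5-fold and 8.99-fold) stood with Ctsb (11.8-fold and 10.4-fold).

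**Figure D1:**
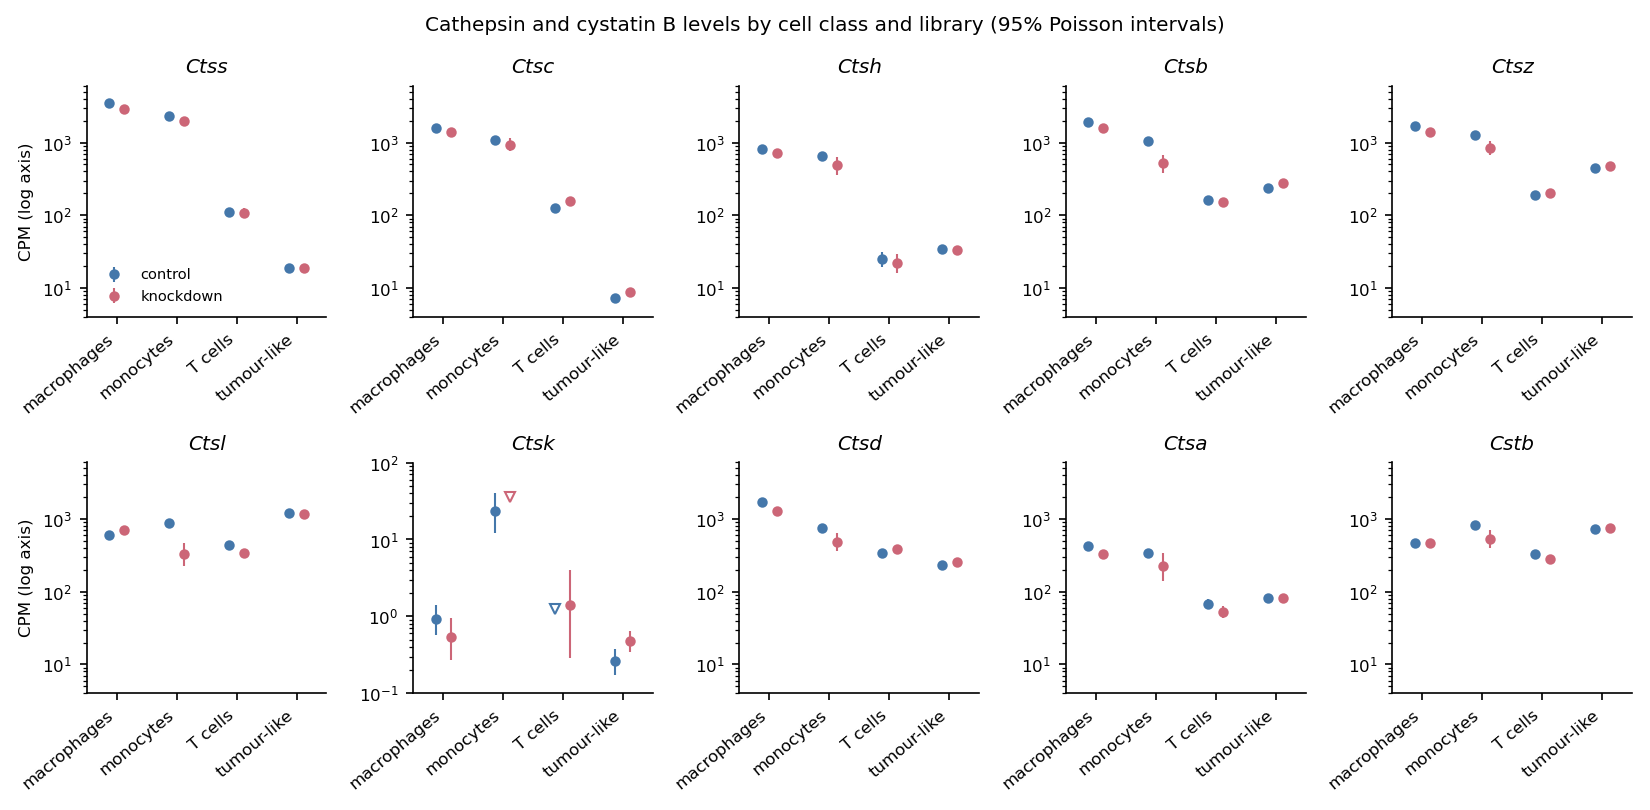
Level of each member in macrophages, monocytes, T cells and tumour-like cells, in CPM on a log axis, with 1 point for each library and bars for the exact 95% Poisson interval. Ctss and Ctsc fall by more than 100-fold from macrophages to tumour-like cells, whereas Ctsl and Cstb are higher in tumour-like cells than in macrophages.

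Ctss (ENSMUSG00000038642), the elastin-degrading cysteine protease that trims the invariant chain, was at 3494 CPM (3470 to 3518) in control macrophages and 2901 CPM (2878 to 2924) in knockdown macrophages. Monocytes followed with 2341 and 1957 CPM, T cells with 109 and 109 CPM, and tumour-like cells with 19.0 and 19.1 CPM. Macrophages therefore held 184 and 152 times the tumour-like level, and they supplied 93.2% and 93.6% of all Ctss UMIs of the retained cells. Other genes of macrophages were at similar shares in tumour-like cells, and the source of this RNA was not tested: 6 macrophage genes (Tyrobp, Fcer1g, Aif1, Csf1r, Ms4a7 and Laptm5) had a median of 0.635% of their macrophage level there (range 0.500 to 0.672%) in control cells and 0.868% (0.681 to 1.15%) in knockdown cells, and Ctss had 0.543% and 0.658%. After thinning every cell to 2000 UMIs, which left out 553 control and 937 knockdown macrophages and no tumour-like cell, 98.5% and 91.5% of macrophages had a Ctss UMI against 4.09% and 4.51% of tumour-like cells. Before thinning the shares were 92.7% and 90.6% of macrophages (median 5421 and 3934 UMIs) and 30% and 26.0% of tumour-like cells (median 18744 and 14710 UMIs).

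Ctsc (ENSMUSG00000030560), the dipeptidyl peptidase that activates granzymes and neutrophil serine proteases, had the same order of classes. It was at 1577 and 1408 CPM in macrophages, 1076 and 935 CPM in monocytes, 126 and 157 CPM in T cells, and 7.32 and 8.86 CPM in tumour-like cells. The ratio of macrophages to tumour-like cells was 215 and 159, and the tumour-like level was 0.464% and 0.629% of the macrophage level, below the range of the 6 macrophage genes in both libraries. The T cell level, in contrast, was 1716% and 1769% of the tumour-like level.

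Ctsh (ENSMUSG00000032359), an aminopeptidase, reached 803 and 709 CPM in macrophages, 662 and 487 CPM in monocytes, 34.6 and 32.9 CPM in tumour-like cells and 24.8 and 21.7 CPM in T cells. Its tumour-like level was 4.30% and 4.65% of that in macrophages, above the range of the 6 macrophage genes in both libraries. In T cells, where it rested on 74 and 47 UMIs, it stood at 3.09% and 3.06% of the macrophage level beside a median of 2.68% and 3.16% for the 6 genes, so that its T cell level was not distinguishable from the level of those genes.

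Ctsb (ENSMUSG00000021939), an endopeptidase that is also an exopeptidase, and Ctsz (ENSMUSG00000016256), a carboxypeptidase, had UMIs in all 4 classes. Ctsb was at 1895 and 1605 CPM in macrophages, 1043 and 516 CPM in monocytes, 240 and 275 CPM in tumour-like cells and 161 and 154 CPM in T cells. Ctsz was at 1680 and 1397 CPM, 1252 and 847 CPM, 440 and 472 CPM and 189 and 201 CPM in the same classes. The T cell class also held tumour RNA, as given below, and Ctsz in it was not above the range of the tumour genes. Tumour-like cells held most UMIs in all, and for Ctsz they supplied 50.5% and 55.2% of all UMIs against 42.6% and 38.5% from macrophages.

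Ctsd (ENSMUSG00000007891), the aspartic protease that starts much of lysosomal protein breakdown, was at 1739 CPM (1721 to 1756) in control macrophages and 1287 CPM (1271 to 1303) in knockdown macrophages. The monocyte levels were 761 and 487 CPM. T cells, with 343 CPM (322 to 364) and 390 CPM (364 to 417), were above tumour-like cells, with 233 CPM (230 to 236) and 256 CPM (253 to 260). Ctsa (ENSMUSG00000017760), the protective carboxypeptidase that holds beta-galactosidase and neuraminidase together, was at 429 and 327 CPM in macrophages, 336 and 224 CPM in monocytes, 83.1 and 81.9 CPM in tumour-like cells and 68.7 and 52.2 CPM in T cells. In the control library the intervals of neighbouring classes did not overlap for any of these 7 members, whereas in the knockdown library, with its 39 monocytes, macrophages and monocytes overlapped for Ctsa and monocytes and T cells for Ctsd.

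Ctsl (ENSMUSG00000021477), the cysteine endopeptidase used in thymic epithelium for invariant chain and by many cells for general turnover, had the opposite pattern. Tumour-like cells held 1207 CPM (1200 to 1213) and 1165 CPM (1158 to 1172), which was 1.99 and 1.66 times the macrophage levels of 607 and 703 CPM. Tumour-like cells supplied 82.9% and 81.6% of all Ctsl UMIs, and after thinning to 2000 UMIs 83.0% and 82.4% of them had a Ctsl UMI. The T cell level was 446 and 347 CPM. The control monocytes were at 888 CPM (809 to 973), but 104 of their 460 Ctsl UMIs, 22.6%, came from a single cell, and the knockdown monocytes were at 331 CPM (229 to 463).

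Cstb (ENSMUSG00000005054), the inhibitor, followed Ctsl more than its other targets, with 727 and 749 CPM in tumour-like cells, 829 and 535 CPM in monocytes, 470 and 464 CPM in macrophages and 333 and 284 CPM in T cells. Tumour-like cells supplied 80.4% and 81.1% of its UMIs. Ctsk (ENSMUSG00000028111), the collagenase of osteoclasts, was at 0.922 and 0.538 CPM in macrophages (21 and 11 UMIs, 11 of the control UMIs in 1 cell) and 0.262 and 0.482 CPM in tumour-like cells (27 and 42 UMIs, each in a different cell). Control monocytes had 12 Ctsk UMIs in 5 cells, 23.2 CPM (12.0 to 40.5), and knockdown monocytes had 0 UMIs, which allows up to 35.9 CPM. T cells had 0 and 3 Ctsk UMIs. Ctsk is the neighbour of Ctss on chromosome 3, with 0 protein-coding genes between them, and Ctss was high in macrophages where Ctsk was near 0.

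Promoter windows from RefSeq on build GRCm38.p6, of 300 bases with 250 before the annotated start and 50 after it, were found for 7 of the 10 members (8 windows, since Ctsa has a pair of starts). They were searched on both strands for CACGTG, for TCACGTGA, which contains CACGTG and is bound by the lysosomal regulators of the TFEB family, and for a core of interferon response elements, GAAA followed by any 2 bases and GAAA again. Of 32851 promoters, 7.15% held CACGTG, 0.974% held TCACGTGA and 3.44% held the interferon core. The windows with a match are printed up to the annotated start, 5′ to 3′ on the gene's strand, with matches in capitals, to show where the lysosomal and interferon motifs stand in the members that hold them. The Ctss window is chr3:95526536-95526785 on the plus strand, Ctsd chr7:142387828-142388077 on the minus strand, Ctsa chr2:164833523-164833772 on the plus strand, and Ctsl chr13:64370521-64370770 on the minus strand.
Ctss: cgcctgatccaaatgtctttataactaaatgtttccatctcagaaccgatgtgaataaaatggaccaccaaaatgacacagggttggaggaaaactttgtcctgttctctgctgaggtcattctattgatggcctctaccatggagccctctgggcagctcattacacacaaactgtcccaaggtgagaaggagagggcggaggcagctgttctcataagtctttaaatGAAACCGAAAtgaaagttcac
Ctsd: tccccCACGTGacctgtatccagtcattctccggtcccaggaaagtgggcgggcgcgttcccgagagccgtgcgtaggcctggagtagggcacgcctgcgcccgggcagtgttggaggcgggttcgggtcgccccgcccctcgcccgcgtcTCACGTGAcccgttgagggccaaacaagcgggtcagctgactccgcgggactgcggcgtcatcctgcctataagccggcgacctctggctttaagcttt
Ctsa: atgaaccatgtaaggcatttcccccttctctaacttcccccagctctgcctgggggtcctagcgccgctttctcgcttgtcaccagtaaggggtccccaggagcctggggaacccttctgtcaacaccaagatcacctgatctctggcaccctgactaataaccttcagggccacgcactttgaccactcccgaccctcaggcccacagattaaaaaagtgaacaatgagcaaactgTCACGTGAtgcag
Ctsl: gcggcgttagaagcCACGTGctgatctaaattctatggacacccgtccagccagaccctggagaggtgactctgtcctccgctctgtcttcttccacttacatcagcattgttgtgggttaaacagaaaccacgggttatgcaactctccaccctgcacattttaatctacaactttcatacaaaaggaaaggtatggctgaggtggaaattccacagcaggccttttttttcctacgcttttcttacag
Ctss held GAAACCGAAA beginning 21 bases before its start. Ctsd held TCACGTGA beginning 99 bases before the start and a further CACGTG at 245 bases, Ctsa held TCACGTGA beginning 13 bases before the start and a second copy at base 5 after it, outside the printed stretch, and Ctsl held CACGTG at 236 bases. A match describes these letters and is not evidence of a bound site.

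In tumour-like cells the knockdown and control libraries were close for most members. Of the 9 members with at least 100 UMIs in 1 library, 1 (Ctsc, higher in the knockdown) differed by at least 1.2-fold, where 14.1% of 12343 genes did, and the median log2 ratio of knockdown over control was 0.04 for the members and 0.04 for all genes. Ctsl differed by -0.05 on that scale, Cstb by 0.04, Ctsz by 0.10, Ctsd by 0.14 and Ctsb by 0.20 (0.17 to 0.22). The exception, Ctsc, was at 0.27 (0.13 to 0.42). Ctss, which like Ctsc was at a low share of its macrophage level in these cells, was at 0.01 (-0.09 to 0.10). The 6 macrophage genes ran from 0.0049 for Laptm5 and 0.08 for Fcer1g over 0.19 for Tyrobp, 0.40 for Ms4a7 and 0.44 for Csf1r to 0.50 for Aif1, with a median of 0.29, and their part in the Ctsc difference was not tested. Ctsc was under 1.2-fold with Scrublet's own doublet threshold (0.26), stricter class thresholds (0.24) and centring on the median of all genes (0.23). Ctsk, under the bound of 100 UMIs, was at 0.88 (0.15 to 1.63).

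In macrophages 4 of 9 members above that bound were lower in the knockdown library by at least 1.2-fold: Ctsd, Ctsa, Ctss and Ctsz. Among 10589 genes 35.5% passed 1.2-fold either way and 8.08% passed it downward. The log2 ratio was -0.43 (-0.46 to -0.41) for Ctsd, -0.39 (-0.44 to -0.35) for Ctsa, -0.27 (-0.28 to -0.25) for Ctss and -0.27 (-0.29 to -0.24) for Ctsz. Ctsb at -0.24, Ctsh at -0.18 and Ctsc at -0.16 were lower by less, Cstb was at -0.02, and Ctsl was higher at 0.21 (0.18 to 0.25). The median of the 9 was -0.24 beside 0.09 for all genes. With no doublet removal 2 of 9 members passed (23.8% of 11616 genes did), and with Scrublet's own threshold 0 of 9 did (22.1% of 10220 genes).

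Tumour RNA within the macrophage class also differed between the libraries, and its part in the lower members was not tested. The genes Hmga2, Tnnt2, Grm3, Sdk1 and Prkg2 stood in macrophages at a median of 14.0% (range 13.2 to 21.8%) of their tumour-like level without the hairpin and 39.0% (24.0 to 47.2%) with it, and the 8 tumour-like markers, Krt8, Krt18 and Epcam among them, summed to 49.3 and 125 CPM. The 6 macrophage genes were lower in the knockdown macrophages too, between -0.36 for Tyrobp and -0.05 for Ms4a7 on the log2 scale with a median of -0.26, and of the pair of members higher in tumour-like cells than in macrophages, Ctsl was above 0 and Cstb at -0.02. When macrophages were limited to cells with a Ptprc UMI and no Hmga2 UMI (2492 and 2285 cells), 0 of 9 members passed 1.2-fold, where 22.2% of 9235 genes did, and the median was -0.01. In those cells Ctss was at 3703 and 3689 CPM (log2 ratio -0.01), Ctsb at 1941 and 1977 CPM, Ctsc at 1698 and 1830 CPM (0.11), Ctsd at 1766 and 1607 CPM (-0.14) and Ctsa at 445 and 398 CPM (-0.16). In macrophages with a Ptprc UMI and none of the 5 tumour genes (1570 and 1338 cells) 0 of 9 passed, where 25.6% of 7832 genes did, with a median of 0.07. This limit also left out cells with a Col3a1 UMI, here and wherever cells with none of the 5 tumour genes are named. In the cells kept, Cstb (-0.13), Ctsd (-0.12) and Ctsa (-0.08) had the lowest log2 ratios, and Ctsh (0.18) and Ctsc (0.15) the highest. Subtraction of the tumour-like share, given with the processing alternatives below, instead gave more members past 1.2-fold and a lower median than in all macrophages.

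**Figure D2:**
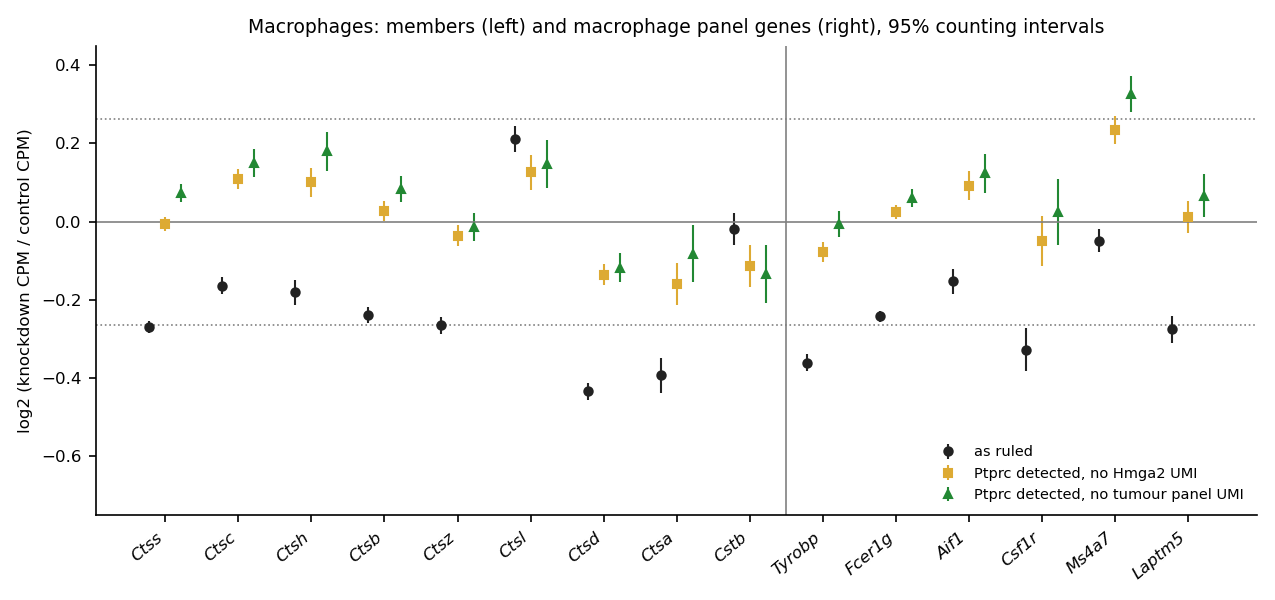
Log2 ratio of knockdown over control in macrophages for 9 members and the 6 macrophage genes, with bars for the 95% interval from counting, in all macrophages by the rule, in those with a Ptprc UMI and no Hmga2 UMI, and in those with a Ptprc UMI and no UMI of the 5 tumour genes or Col3a1. Dotted lines mark 1.2-fold. In all macrophages 8 of the 9 members lie below 0, whereas in the class without Hmga2 Ctss, Ctsb and Ctsz lie within 0.04 of 0.

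Macrophages were next split by the interferon-induced genes Ifit1, Ifit2 and Ifit3 (at least 10 UMIs per 10000 together). Cells past that bound made up 17.1% of control and 28.2% of knockdown macrophages. The 8 tumour-like markers differed between these states, at 38.7 and 89.5 CPM in Ifit cells and 51.2 and 137 CPM in the others. The states were therefore compared within each library among cells with a Ptprc UMI and no Hmga2 UMI, 451 control and 719 knockdown Ifit cells and 2041 and 1566 others.

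Ctsd was lower in Ifit cells, at 1473 against 1823 CPM in control cells and 1258 against 1750 CPM in knockdown cells, log2 ratios of -0.31 (-0.36 to -0.26) and -0.48 (-0.53 to -0.43). Ctsl had -0.20 (504 against 579 CPM) and -0.32 (525 against 656 CPM). The antigen-presentation protease Ctss was slightly higher, at 3910 against 3663 CPM and, with the hairpin, 3941 against 3586 CPM (0.09 and 0.14). Ctsa had -0.16 and -0.17, while Ctsh had 0.02 and -0.03. Past 1.2-fold lower were 1 member in control cells (Ctsd; 21.6% of 8742 genes) and 2 in knockdown cells (Ctsd and Ctsl; 15.8% of 7480 genes), and 0 members were past it upward (14.8% and 14.7% of genes). Without the limit on Ptprc and Hmga2, 0 control and 2 knockdown members were past it upward (15.2% of 9768 and 14.9% of 9731 genes), Ctsc at 0.30 and Ctss at 0.28 (3339 against 2750 CPM), and 1 control and 2 knockdown members were past it downward (20.2% and 21.9% of genes). The Ctss window printed above carries the interferon motif core, and the Ctss difference was under 1.2-fold in both libraries in the limited cells but past it in the knockdown library without that limit.

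**Figure D3:**
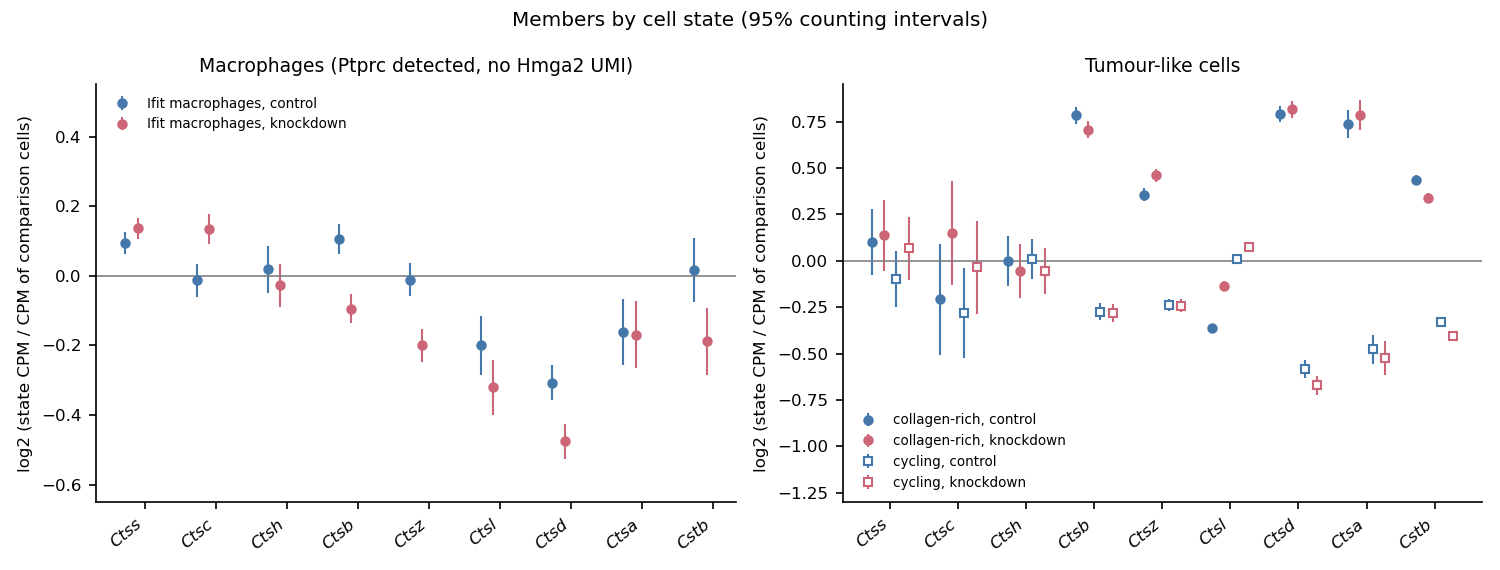
Log2 ratio of each member between cell states in each library, with bars for the 95% interval from counting: Ifit macrophages over the other macrophages on the left, and collagen-rich (filled) and cycling (open) tumour-like cells over those that were neither on the right. Ctsd is high in collagen-rich cells (0.79 and 0.82) and low in Ifit macrophages (-0.31 and -0.48) and cycling cells, whereas Ctsl is below 0 in collagen-rich cells.

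Tumour-like cells were split by Mki67 and Top2a (cycling, at least 2 UMIs per 10000) and by Col1a1, Col1a2 and Col3a1 (collagen-rich, at least 20 per 10000). Collagen-rich cells had higher Ctsd (394 against 228 CPM in control cells that were neither, 431 against 245 CPM in knockdown cells), Ctsb (374 against 217 CPM, and 408 against 250 CPM) and Ctsa (135 against 80.7 CPM, and 132 against 76.9 CPM). The log2 ratios were 0.79 and 0.82, 0.78 and 0.71, and 0.74 and 0.78. Cstb (0.43 and 0.34) and Ctsz (0.36 and 0.46) also passed 1.2-fold, giving 5 of 9 members in each library beside 33% of 10779 and 27.3% of 10396 genes. Ctsl was lower in the collagen-rich cells, at 988 against 1272 CPM and, with the hairpin, 1072 against 1177 CPM (-0.36 and -0.14). The 5 fibroblast markers summed to 6914 and 6575 CPM in collagen-rich cells and 1362 and 1624 CPM in cells that were neither, and their part in these differences was not tested.

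Cycling cells had the lowest levels of the same genes. Ctsd was at 152 and 154 CPM, -0.58 and -0.67 on the log2 scale against cells that were neither, Ctsa at 58.0 and 53.5 CPM (-0.48 and -0.52) and Cstb at 582 and 586 CPM (-0.33 and -0.41). At least 1.2-fold lower were 5 of 9 control and 4 of 9 knockdown values, beside 17.1% of 10893 and 13.8% of 10642 genes. Ctsl did not follow, at 0.01 and 0.08. Ctsd, Ctsa, Ctsb, Cstb and Ctsz had the same order of the 3 tumour-like states in both libraries. Of these, Ctsd and Ctsa hold TCACGTGA in their promoter windows, Ctsz holds none of the motifs, and no window was found for Ctsb and Cstb. Ctsl, whose window holds CACGTG, did not have that order, and a link between motif and order was not tested.

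In T cells Ctsd, Ctsc and Ctss were higher, and Ctsl, Ctsz and Cstb lower, when cells with tumour RNA were left out. The 5 tumour genes stood in T cells at a median of 54.8% (41.1 to 56.2%) of their tumour-like level in control cells and 39.2% (31.1 to 45.4%) in knockdown cells. Ctsl (36.9% and 29.8%), Ctsz (43.0% and 42.5%) and Cstb (45.8% and 38.0%) were not above those ranges, whereas Ctsd stood at 147% and 152% of its tumour-like level. In T cells with a Ptprc UMI and no Hmga2 UMI (491 and 426 cells) Ctsl was at 152 and 122 CPM, and in T cells with a Ptprc UMI and no UMI of the 5 tumour genes or Col3a1 (341 and 302 cells) at 69.2 and 64.5 CPM, compared with 446 and 347 CPM in all T cells. Ctsd went the other way over these limits, from 343 and 390 CPM to 441 and 458 CPM and then 456 and 504 CPM. Ctsc went with Ctsd, from 126 and 157 CPM to 165 and 219 CPM and then 173 and 255 CPM. Ctss was at 138 and 163 CPM in the last of these, but in all T cells it stood at 3.13% and 3.76% of its macrophage level, beside a median of 2.68% and 3.16% for the 6 macrophage genes. Ctsc stood at 7.97% and 11.1%, and Ctsd at 19.7% and 30.3%, all within the range of those 6 genes, whose upper end of 59.1% and 76.9% is set by Laptm5, which lymphocytes also express. In T cells with none of the 5 tumour genes Ctsh was at 12.3 and 12.2 CPM, compared with 24.8 and 21.7 CPM in all T cells. Ctsb was at 124 and 135 CPM compared with 161 and 154 CPM, and Ctsa at 61.6 and 57.2 CPM compared with 68.7 and 52.2 CPM.

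**Figure D4:**
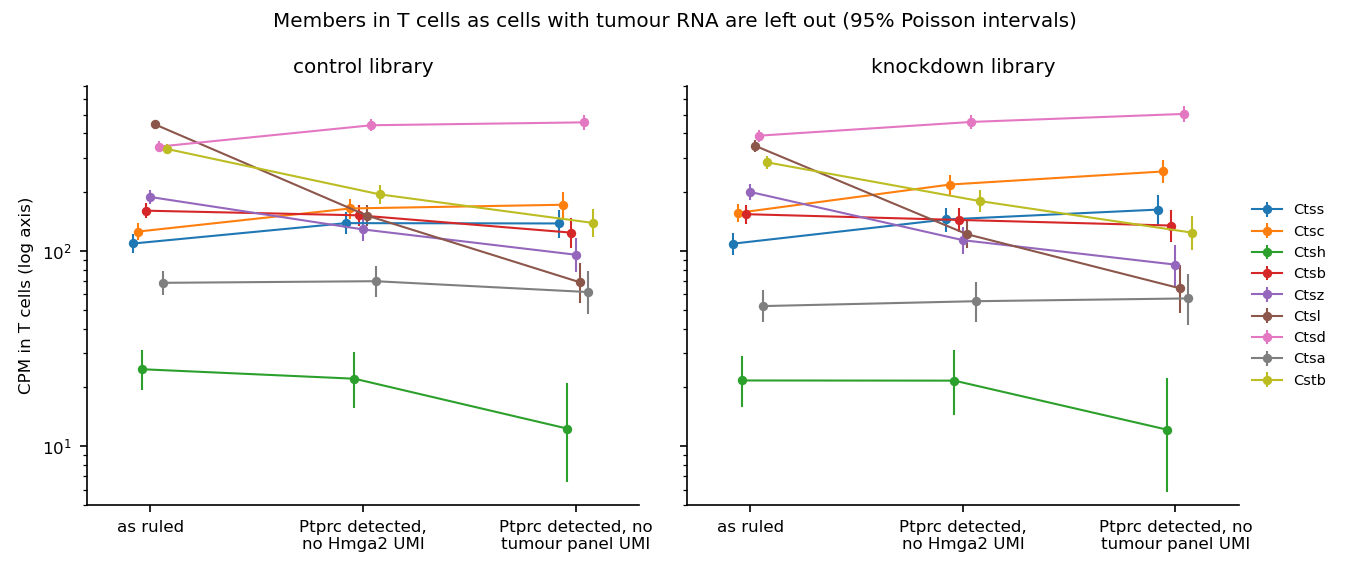
Level of members in T cells, in CPM on a log axis with 95% Poisson intervals, in all T cells, in those with a Ptprc UMI and no Hmga2 UMI, and in those with a Ptprc UMI and no UMI of 5 tumour genes or Col3a1, for both libraries. Ctsl, Cstb, Ctsz and Ctsh drop along the axis, and Ctsb by less, while Ctsd, Ctsc and Ctss do not.

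Between the libraries, 3 of the 8 members with at least 100 UMIs differed by at least 1.2-fold in all T cells, where 19.6% of 4866 genes did: Ctsc was higher in the knockdown library at 0.32 (0.10 to 0.53), and Ctsl at -0.36 (-0.49 to -0.23) and Ctsa at -0.40 (-0.74 to -0.06) were lower. These calls move with the handling of doublets (cells that share a droplet): 0 of 9 members passed with no doublet removal (17.8% of 6655 genes did), where Ctsl was at -0.05, and 6 of 8 with Scrublet's own threshold (41.8% of 4866 genes did), where it was at -1.34. That threshold took 9.08% of control and 21.9% of knockdown barcodes. Ctsl was at -0.32 (-0.61 to -0.03) in T cells with Ptprc and no Hmga2 and at -0.10 (-0.64 to 0.43), on 73 and 53 UMIs, in those with none of the 5 genes. Ctsa was at -0.34 (-0.78 to 0.09) and -0.11 (-0.68 to 0.46) in the same cells, the latter on 65 and 47 UMIs. Both were thus still past 1.2-fold under the first of these limits, where 19.2% of 3021 genes were, and not under the second. Ctsc, in contrast, was at 0.41 (0.17 to 0.65) in the cells with Ptprc and no Hmga2 and 0.57 (0.27 to 0.86) in the cells with none of the 5 genes, on 182 and 210 UMIs, where 23% of 1864 genes passed 1.2-fold either way. Within T cells, those with at least 2 UMIs of Cd8a and Cd8b1 and no Cd4 or Foxp3 UMI (329 and 299 cells) had higher Ctsd (413 and 466 CPM) and Ctsc (155 and 180 CPM) than the T cells that met none of the Foxp3, Cd8 and Cd4 rules (273 and 199 cells; Ctsd 255 and 259 CPM, Ctsc 94.1 and 113 CPM). Among cells with a Ptprc UMI and no Hmga2 UMI, Ctsd was at 477 and 541 CPM in the Cd8 cells and 372 and 278 CPM in the others, whereas Ctsc was at 169 and 170 CPM in the control Cd8 and other cells and at 232 and 188 CPM in the knockdown ones.

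In monocytes 7 of 9 members were lower in the knockdown library by at least 1.2-fold (30.7% of 784 genes were), with a median log2 ratio of -0.59 beside -0.07 for all genes. Ctsb was at 1043 CPM (957 to 1135) and 516 CPM (386 to 675), intervals that did not overlap. The 5 tumour genes stood in monocytes at a median of 14.0% (3.81 to 20.6%) of their tumour-like level in control and 31.2% (0 to 55.3%) in knockdown cells. In monocytes with Ptprc and no Hmga2 (95 and 24 cells) 7 of 9 members were lower by at least 1.2-fold as well (29.1% of 553 genes were), Ctsb at 985 and 494 CPM among them. The knockdown value of Ctsb rests on 53 UMIs from 39 cells, and the neutrophil genes differ as given above, so that cell composition and level cannot be told apart here.

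Likeness to other genes was measured as Pearson's r of log2(CPM + 1) over 21 points, the sub-classes of both libraries with at least 50 cells, among 11803 genes. These points share libraries and are not independent, and the members were left out of each other's ranking. Ctss was most like Fcer1g (0.997), an Fc receptor chain, Ms4a6c and Lrmda. Ctsc was most like Ccrl2 (0.996), Cd86 (0.995), a costimulatory ligand, and AB124611, and Ctsh was most like Sirpb1b, C5ar2 and Lgmn (0.994), the legumain protease that itself processes cathepsins. Ctsz stood nearest to Lamp1 (0.993), Slc31a2 and Lamp2 (0.985), of which Lamp1 and Lamp2 are the main lysosomal membrane glycoproteins. Ctsb was nearest to Tmem119 (0.988), Psap (0.983), the saposin precursor, and Creb5, and Ctsa to Tmem104 (0.987), Tmem119 and Lrpap1. Lower values were found for Ctsd (Rap2a at 0.958, Metrnl, Scp2), for Ctsl (Atp6v1g1, a proton pump subunit, at 0.923, 0610012G03Rik, Tnfaip2) and for Cstb (Pdpn at 0.918, Plin3, Dstn). Among the members, Ctsa and Ctsb had r = 0.985, higher than that of Ctsb with Psap and of Ctsa with Tmem119, Ctsc and Ctss 0.983 and Ctsl and Cstb 0.872, whereas Ctsl and Ctsc had -0.511.

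From cell to cell, Ctsb and Ctsd had the highest correlation of any pair in the macrophages with a Ptprc UMI and no Hmga2 UMI. After thinning to 5000 UMIs Pearson's r of log counts was 0.644 over 1575 control cells and 0.597 over 986 knockdown cells. Ctsh and Ctss had 0.397 and 0.450 over the same cells. The cells behind each value come from 1 library.

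The other genes of the pathway were taken as 7 lists of 80 symbols, 78 of which are in the files. In macrophages 11 of the 67 with at least 100 UMIs were higher and 17 lower by at least 1.2-fold in the knockdown library, beside 27.4% and 8.08% of all genes. The lower ones included 7 of 22 hydrolases and cofactors, 3 of 16 proton pump subunits, 2 of 4 transcription factors and 2 of 7 processing genes, Lgmn among them (1490 and 1106 CPM, -0.43). Tfec, a myeloid factor of the TFEB family, was at 20.3 and 12.9 CPM (-0.65). These values are from all macrophages by the rule, where the list genes had a median log2 ratio of -0.18 and the 6 macrophage genes -0.26. No member passed 1.2-fold in macrophages with Ptprc and no Hmga2, and list values in those cells are not given here. The part of tumour RNA in the lower list genes was not tested. Protease inhibitors went the other way, with 5 of 6 higher. Cst6 (cystatin E/M) was at 8.65 and 38.0 CPM (2.13), Csta2 of the stefin A family at 2.81 and 8.26 CPM (1.56) and Serpinb1a, an inhibitor of neutrophil serine proteases, at 4.79 and 13.6 CPM (1.51). Those genes were higher in tumour-like cells, at 90.6 and 129 CPM for Cst6, 21.1 and 34.8 CPM for Csta2 and 40.3 and 65.5 CPM for Serpinb1a, beside the tumour-gene levels in macrophages given above. Ctsw, a cathepsin of cytotoxic lymphocytes, was at 2.72 and 5.13 CPM in macrophages and at 406 and 382 CPM in T cells.

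In tumour-like cells 6 of 63 list genes were higher and 0 lower (11.2% and 2.86% of all genes), and 5 of the 6 were inhibitors. Csta2 differed by 0.72, Serpinb1a by 0.70, Cst6 by 0.51 and Cst3 (cystatin C, 714 and 890 CPM) by 0.32, and the gene outside that list was Mitf at 0.42 (6.64 and 8.89 CPM). These inhibitors were higher in the cells that hold most of the Ctsl, which itself differed by -0.05. In T cells 7 of 41 were higher and 5 lower (10.6% and 8.98% of all genes). Gusb, beta-glucuronidase, had the lowest ratio there, at 35.9 and 23.6 CPM, and Cst7 (cystatin F, an inhibitor of Ctsc in cytotoxic cells) was at 103 and 148 CPM (0.52), in the same direction as Ctsc. In monocytes 2 of 21 were higher and 11 lower (19.9% and 30.7% of all genes), with Cd63 at 350 and 681 CPM and with Atp6ap2 (-1.24), Cd68 (-1.01) and Atp6v0c (-0.74) lower.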

How the data were processed

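The unit is the UMI count per gene and cell: the authors deposited matrices of whole counts, and the Cell Ranger version is 6.1.0 per the file headers but 3.1.0 per the submitters' processing notes. Genome build and annotation are not given in the sources used here. Cells with under 200 genes or over 20% mitochondrial UMIs were removed, with 1148 control and 1322 knockdown cells of the highest Scrublet doublet scores (scanpy 1.11.5), which left 10662 and 11450. Cells met a class rule on their own counts. Counts were summed per class and library (numpy 2.4.6, pandas 2.3.3). Level intervals are exact Poisson and ratio intervals exact conditional binomial at 95% (scipy 1.17.1). The ratio interval was run on simulated Poisson counts, the model it assumes. Those counts hold no clumping of UMIs within cells, so that run cannot show how the interval fares with clumped UMIs. Genes with at least 100 UMIs in 1 library were compared, and called past 1.2-fold between libraries or states and 4-fold between classes. All members were named, as were the 3 likest genes of each and list genes past 1.5-fold, and a few more list genes were chosen after their values were seen. PCR and capture error is not covered. Members, classes and lists were chosen with earlier results of these data known. The likeness sub-classes and the control mix of macrophage sub-classes also use a macrophage split that, like 1 list gene, is not reported here. The Ifit comparison was chosen after seeing the data. Plots used matplotlib 3.10.9.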

Additional observations from a re-analysis of the deposited data

How the results depend on the processing

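Against 4 macrophage members past 1.2-fold and a median log2 ratio of -0.24, no doublet removal gave 2 and -0.17, every barcode kept 2 and -0.17, Scrublet's own threshold 0 and 0.00021, cells with Ptprc and no Hmga2 0 and -0.0056, stricter class thresholds 2 and -0.18, subtraction of the tumour-like share 7 and -0.41, centring on the median of all genes a median of -0.33, the control mix of macrophage sub-classes a median of -0.17, and a 1.5-fold bound 0. Alternatives chosen after seeing the data gave 0 and 0.073 (none of the 5 tumour genes), 1 and 0.019 (centred on the macrophage genes) and a median of 0.080 (share subtracted and rescaled). The 1 member after that centring was Ctsl, which was higher, at 0.47. After rescaling Ctsc (0.33) and Ctsh (0.30) were past 1.2-fold upward, and Ctsl (-0.32) and Cstb (-0.60) downward. Of Ctsd, Ctsa, Ctss and Ctsz, the 4 members past 1.2-fold in macrophages by the rule, the sign turned for Ctss to 0.017 with Scrublet's own threshold, 0.073 with none of the tumour genes and 0.22 after rescaling, and for Ctsz to 0.080 after rescaling, and under no alternative run for Ctsd and Ctsa. Of the other macrophage members, Ctsb, Ctsc and Ctsh turned above 0 under 5 of 15 alternatives each, Cstb under 3, and Ctsl turned below 0 under 2. In monocytes stricter thresholds gave 4 members and -0.20. In T cells, against 3 members, no doublet removal gave 0, every barcode kept 0, a 1.5-fold bound 0, Scrublet's own threshold 6, and the rule per 10000 UMIs, equal weight for cells and none of the tumour genes 1 each. In tumour-like cells, against 1 member and 0.04, Scrublet's own threshold, stricter thresholds, centring, subtraction and 1.5-fold gave 0, a bound of 30 UMIs or no bound gave 2, equal weight gave a median of 0.0085 and centring 0.0029. Subtraction and the limits on tumour genes change the tumour RNA in a class by construction, and the limits also change which cells are kept. The cause of the differences between alternatives was not tested. Of 442 member values under 15 planned and 4 added alternatives, 311 stayed within their interval, and 49 changed sign, 24 of them in macrophages. The 7 members highest in macrophages were so in both libraries under every alternative run. Precision is limited by 39 knockdown monocytes and by 1 library a group. No paired analysis was possible because each group has 1 library.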

Other observations

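Cells outside the 4 classes included small groups of NK cells (at least 2 UMIs of Ncr1 and Klrb1c, no Cd3 UMI; 34 control and 36 knockdown cells) and dendritic cells (at least 3 UMIs of Flt3, Zbtb46, Xcr1, Clec9a and Ccr7; 38 and 32 cells). NK cells held Ctsd at 711 CPM (604 to 831) and 627 CPM (522 to 746), above the interval of all T cells in both libraries, while T cells with none of the 5 tumour genes were at 456 CPM (416 to 499) and 504 CPM (456 to 554), which in the knockdown library overlaps, with Ctsc at 104 and 148 CPM and 1 and 2 UMIs of Ctsh. In the dendritic cells Ctsz was at 670 and 465 CPM, Ctsh at 433 and 222 CPM, Ctss at 413 and 243 CPM and Ctsc at 221 and 267 CPM, while Ctsd was at 32.1 and 71.2 CPM, the lowest Ctsd level of any class or group described here. Ctsl and Cstb were higher in the knockdown library in both groups. Ctsl was at 45.3 and 202 CPM in NK cells and 68.2 and 261 CPM in dendritic cells. Cstb was at 118 and 271 CPM in NK cells and 172 and 338 CPM in dendritic cells.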
